A study of Mus musculus with 6 samples.

Results

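The 10 trophoblast lineage factors Cdx2, Eomes, Elf5, Tfap2a, Tfap2c, Hand1, Ascl2, Gcm1, Ets2 and Tead4 were examined for binding of GATA4 and GATA6 in XEN cells, a line of extra-embryonic endoderm. They were chosen by name, as factors of the other extra-embryonic lineage and a contrast to endoderm genes, and are 10 of 21938 protein-coding genes of the mm10 annotation. A region was assigned to a gene when it overlapped the gene body or the 50 kb to either side of a transcription start site (TSS) by at least 1 bp. These windows were at most 137.1 kb long, against a median of 104.2 kb over all genes. Binding was measured by CUT&RUN, where a nuclease tethered to an antibody cuts out the DNA around the bound factor. The series holds 3 libraries for GATA4 and 3 for GATA6, each from 500000 cells. All 6 carry the label XEN with genotype 3F2. The study's methods derive its 3F XEN lines from mice that carry an Oct4-GFP reporter, the M2rtTA transactivator at R26 and the inducible TetO-OKSmCh cassette at Col1a1, and no induction of the transgene is stated for these libraries. As labelled, the groups differ in the factor targeted and all come from 1 cell line. The assay records DNA binding, so it holds no RNA level of any of the 10 factors.

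Trophoblast arises from the trophectoderm, the outer layer of the blastocyst, and forms the placenta, while XEN cells represent the primitive endoderm. Tead4 acts with the co-activator YAP to switch on trophectoderm genes, and Cdx2, Eomes, Elf5, Tfap2c and Ets2 maintain trophoblast stem cells. Hand1, Ascl2 and Gcm1 act in the differentiated cells of the placenta. GATA4 and GATA6 are zinc finger factors that define the endoderm lineage and bind the core letters GATA.

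Of the 10 factors, Elf5 alone had combined regions nearer to its own TSS than to that of any other protein-coding gene. A combined region is one that the authors kept because all 3 libraries of a factor held it. GATA4 combined regions lay in the windows of 4 of 10 members (Eomes, Elf5, Hand1 and Tead4), beside 48.2% of all genes. GATA6 combined regions lay in the windows of 2 of 10 (Elf5 and Ascl2), beside 38.3% of all genes. Elf5 had regions of both, as did 33.8% of all genes. The 10 windows together held 9 GATA4 and 2 GATA6 combined regions, where 10 genes at the all-gene mean would hold 10.1 and 6.69. The GATA4 counts were thus near the background in total, but 6 of the 9 regions lay in the Elf5 window. Eomes, Hand1 and Tead4 had 1 each. The GATA6 counts were below the background but small. With 2 of 3 libraries required, 5 of 10 members had a GATA6 region, beside 60.4% of all genes. Neither difference was tested.

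The DNA under the regions that the results turn on is given first, as the 200 bp around the midpoint of each region. It was read from the GRCm38 (mm10) plus strand, with copies of a GATA motif in capitals. The motif was searched on either strand as GATA preceded by the letter A or T and followed by the letter A or G, so a copy on the minus strand reads as its reverse complement. The first sequence lies in the region shared by all 6 libraries upstream of Elf5 (chr2:103406236-103406435). The second is the GATA4 region nearest an Elf5 TSS and holds no copy in this stretch (chr2:103445954-103446153). The others were chosen after their values were seen. They come from an intron of Elf5 (chr2:103439888-103440087), from the Elf5 region called in the GATA4 libraries only (chr2:103444804-103445003), from the Eomes window (chr9:118496236-118496435) and from the GATA6 region in the Ascl2 window (chr7:142919499-142919698).
Elf5 upstream: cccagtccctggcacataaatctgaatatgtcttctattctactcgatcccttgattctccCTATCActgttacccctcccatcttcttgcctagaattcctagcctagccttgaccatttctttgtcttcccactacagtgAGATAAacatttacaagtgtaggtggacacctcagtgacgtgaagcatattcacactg
Elf5 nearest a start site: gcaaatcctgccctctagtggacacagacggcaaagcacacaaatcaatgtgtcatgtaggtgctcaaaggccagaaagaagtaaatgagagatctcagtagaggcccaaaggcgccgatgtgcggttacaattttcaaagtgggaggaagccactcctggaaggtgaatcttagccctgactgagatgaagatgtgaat
Elf5 intron: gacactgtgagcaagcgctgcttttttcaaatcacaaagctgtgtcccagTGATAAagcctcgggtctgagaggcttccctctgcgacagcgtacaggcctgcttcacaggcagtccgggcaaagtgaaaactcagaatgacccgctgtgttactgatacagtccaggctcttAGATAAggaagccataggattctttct
Elf5 GATA4 only: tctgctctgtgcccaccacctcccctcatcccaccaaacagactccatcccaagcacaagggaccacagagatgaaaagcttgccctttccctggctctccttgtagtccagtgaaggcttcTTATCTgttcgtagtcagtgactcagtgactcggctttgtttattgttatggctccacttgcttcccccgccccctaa
Eomes window: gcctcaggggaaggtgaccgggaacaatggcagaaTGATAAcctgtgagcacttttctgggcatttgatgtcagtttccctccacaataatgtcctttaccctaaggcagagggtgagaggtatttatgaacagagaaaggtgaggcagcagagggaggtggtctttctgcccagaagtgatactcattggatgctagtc
Ascl2 window: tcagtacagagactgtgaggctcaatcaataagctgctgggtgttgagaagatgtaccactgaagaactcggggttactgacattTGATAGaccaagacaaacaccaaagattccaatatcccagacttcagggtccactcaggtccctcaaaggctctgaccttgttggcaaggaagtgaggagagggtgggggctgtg

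The motif stood within these central 200 bp in 5 of the 9 GATA4 combined regions of the members, beside 39.7% of all GATA4 combined regions. The midpoint lay within 1 kb of a TSS in 4 of the 9 regions, beside 48.6% of the list. Of the other 5 regions, 4 held the motif, beside 59.7% of the list's regions over 1 kb from a TSS. Both GATA6 regions held it. Searched over the whole region, 64.5% of all GATA6 combined regions held it. In the promoters of RefSeq (GRCm38.p6), 300 bp each, 9 sequences matched 7 members: Cdx2, Eomes, Elf5, Tfap2a, Ascl2, Gcm1 and Ets2. The motif was present in 1 of the 9, an Elf5 promoter (chr2:103411848-103412147), beside 29.8% of all RefSeq promoters. No sequence was matched for Tfap2c, Hand1 or Tead4.

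The libraries held between 42446 and 49597 called regions. The number of filtered reads behind each is unknown, and the labels give 30000000 reads per sample. No IgG control entered the calls, and the signal was not scaled for depth, so it is described only within a library. The maximum signal of a region, the highest number of fragments stacked at 1 position, had a median of 4 in each library. Of all merged regions, 83.2% were called in 1 library only. Of the 88 merged regions in the members' windows, 66 (75.0%) were called in 1 library and 1 in all 6.

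A called region of any kind was common around the members and around other genes. In the GATA4 libraries 9, 8 and 9 of the 10 members had one, beside 85.1%, 83.5% and 83.2% of all genes. In the GATA6 libraries 8, 8 and 7 did, beside 83.1%, 82.2% and 83.2%. The mean number over the 6 libraries was above the all-gene median of 2.67 for Elf5, Eomes and Tead4, and below it for the other 7 members.

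**Figure D1:**
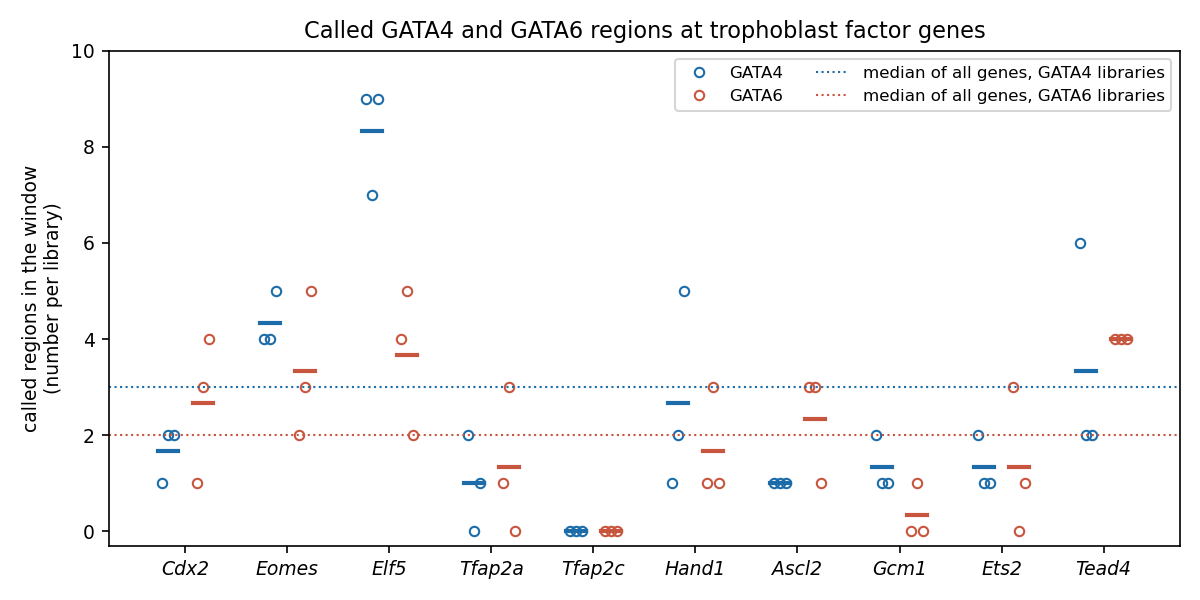
Number of called regions in the window of each gene (y axis) for the 10 trophoblast factors (x axis), with 1 circle per library, a bar at the mean of the 3 libraries of a factor, and dotted lines at the median of all genes. The 3 GATA4 libraries hold 7 to 9 regions at Elf5, above the 2 to 5 of the GATA6 libraries, and no library holds one at Tfap2c.

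Elf5, an ETS-family factor that maintains trophoblast stem cells, had the highest mean of the 10 in the GATA4 libraries and over all 6, while in the GATA6 libraries alone Tead4 was higher (ENSMUSG00000027186.14, chr2:103411688-103450989, plus strand). The GATA4 libraries held 9, 7 and 9 regions in its window (8.33 ± 1.15, SD, n = 3), and the GATA6 libraries 4, 5 and 2 (3.67 ± 1.53, SD, n = 3). The groups did not overlap. By an exact permutation test, two-sided, the difference of 4.67 regions had p = 0.1, the smallest that 3 against 3 libraries allow, and an adjusted p of 1 over all 21938 genes. All 3 GATA4 libraries held more regions than each GATA6 library at 1 of 10 members, Elf5, beside 5.36% of all genes. The reverse held at 0 of 10 members, beside 1.49% of genes. With GATA4 replicate 1 left out it held at 1 member, Tead4, beside 3.78% of all genes. The 1 member was Cdx2 without GATA6 replicate 1 (3.55%) and Ascl2 without GATA6 replicate 3 (3.5%). No gene reached an adjusted or an unadjusted p under 0.05, since 0.1 is the floor, which 1503 genes reached. The labels do not say that the libraries came from separate cultures, so these p-values measure the spread between these samples, which may be technical.

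The Elf5 window held 6 GATA4 combined regions, and 1.65% of all genes had at least as many. It was the longest of the 10 windows. Of the 6 regions, 5 were nearest to an Elf5 TSS among protein-coding genes, and the other covered the TSS of Cat, the catalase gene. Elf5 was the only member that was the nearest gene of a GATA4 combined region in its window, beside 24.5% of all genes, and of a GATA6 combined region, beside 17.2%.

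The region called in all 6 libraries lay 5014 bp upstream of the 5′ TSS of Elf5, between genes (GATA4 chr2:103405997-103406674, GATA6 chr2:103405936-103406447). Its maximum signal was 11, 12 and 9 in the GATA4 libraries and 6, 4 and 5 in the GATA6 libraries. By total signal it stood at percentiles 96.8, 97.9 and 94.5 of the GATA4 lists, and at 36.3, 73.6 and 11.0 of the GATA6 lists. The region thus ranked near the top of each GATA4 list, and its rank varied widely between the GATA6 lists. It was the only 1 of the 9 GATA4 regions of the members that overlapped a GATA6 combined region, beside 45.2% of the whole GATA4 list. Its central 200 bp, printed first above, hold 2 copies of the motif.

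A pair of GATA4 regions lay within the 3′ part of the gene. One overlapped an exon of a retained-intron transcript of Elf5, 1641 bp from an internal TSS (chr2:103444570-103445238), with a maximum signal of 12, 13 and 6 in the GATA4 libraries and no call in a GATA6 library. Over the series, 9.01% of regions called in all 3 GATA4 libraries were called in no GATA6 library. The second lay 521 bp from the same internal TSS, that of a processed transcript (chr2:103445750-103446358). Its maximum signal was 7, 10 and 6 in the GATA4 libraries and 6 in GATA6 replicate 1 only. Elf5 was therefore the 1 member of 10 with a GATA4 combined region within 1 kb of an annotated TSS, beside 19.8% of all genes. That TSS belongs to a non-coding transcript of Elf5, and at its 5′ TSS a region was called in GATA4 replicate 1 only, 223 bp away. No member had a GATA6 combined region within 1 kb of a TSS, beside 13.8% of all genes.

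The other 3 GATA4 combined regions in the Elf5 window lay in an intron, at the start of the long non-coding RNA A930006I01Rik 38685 bp away, and at Cat. Each of these 3 was also called in 1 or 2 GATA6 libraries.

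**Figure D2:**
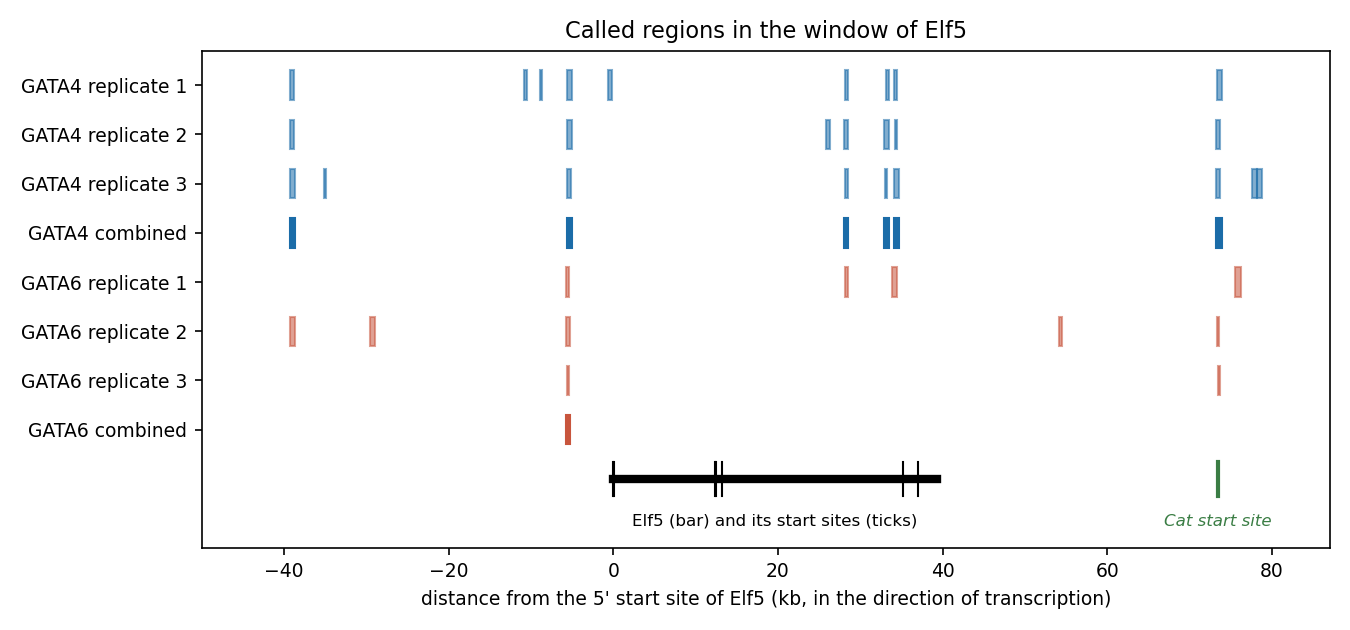
Called regions in the Elf5 window by distance from the 5′ TSS of Elf5 (x axis, kb), with 1 row per library and per combined list, Elf5 as a bar with ticks at its start sites, and the Cat start site in green. The region 5014 bp upstream is present in all 6 libraries, and the 5 other GATA4 combined regions recur in the GATA4 rows and in at most 2 of the 3 GATA6 rows.

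Eomes, a T-box factor required for trophoblast stem cells, had a mean of 3.83 regions over the 6 libraries, after Elf5 with 6.0 and beside 3.67 for Tead4 (ENSMUSG00000032446.14). The GATA4 libraries held 4, 4 and 5 regions and the GATA6 libraries 2, 3 and 5, so the groups overlapped (p = 0.5, exact permutation test). Its 1 GATA4 combined region lay 17098 bp from an Eomes TSS (chr9:118495959-118496713), between genes, and 9554 bp from Golga4, a Golgi protein gene, which was nearer. The maximum signal there was 10, 5 and 10 in the GATA4 libraries and 4 in GATA6 replicates 1 and 3, with no call in replicate 2. Near the Eomes start sites, 2 regions lay 95 and 375 bp from a TSS, the latter in a coding exon of Eomes. Each was called in a single library with a maximum signal of 2.

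Tead4, which acts upstream of Cdx2 in the trophectoderm, had 6, 2 and 2 regions in the GATA4 libraries and 4 in each GATA6 library (p = 1, exact permutation test). Its 1 GATA4 combined region overlapped an exon of the neighbouring gene Tulp3 at 40319 bp from a Tead4 TSS (chr6:128341142-128341878). The maximum signal there was 7, 5 and 3 in the GATA4 libraries, with no call in a GATA6 library. A region in an intron of Tead4 itself (chr6:128285484-128286242) was outside both combined lists but was called in 4 libraries, GATA4 replicates 1 and 3 and GATA6 replicates 1 and 2. Its maximum signal in them was 7, 7, 9 and 5.

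Cdx2, the caudal-type homeobox factor of the trophectoderm, had no combined region of either factor. The GATA4 libraries held 1, 2 and 2 regions in its window and the GATA6 libraries 1, 3 and 4, and 11 of its 12 merged regions were called in 1 library only. The groups overlapped (p = 0.5, exact permutation test).

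The AP-2 factors Tfap2a and Tfap2c, both expressed in trophoblast, had no combined region. Tfap2c had no called region in any of the 6 libraries, beside 4.55% of all genes. Its window of 102.5 kb was close to the median length. Tfap2a had 2, 0 and 1 regions in the GATA4 libraries and 1, 3 and 0 in the GATA6 libraries (p = 1, exact permutation test). Ets2, an ETS-family factor of trophoblast stem cells, had 2, 1 and 1 regions in the GATA4 libraries and 3, 0 and 1 in the GATA6 libraries (p = 1, exact permutation test). All 8 merged regions at Ets2 were called in a single library each, and 1 of them covered its TSS, in GATA4 replicate 1.

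Among the factors of differentiated trophoblast, Hand1, a factor of trophoblast giant cells, had 1, 2 and 5 regions in the GATA4 libraries and 1, 3 and 1 in the GATA6 libraries (p = 0.7, exact permutation test). Its 1 GATA4 combined region covered the promoter of Sap30l, 30437 bp from Hand1 (chr11:57800995-57801710), and was also called in GATA6 replicate 2. A region nearest to Hand1 itself, 11779 bp from its TSS (chr11:57819968-57820368), was called in 4 libraries, GATA4 replicates 2 and 3 and GATA6 replicates 2 and 3. Its maximum signal in them was 8, 6, 8 and 10. Its total signal stood at percentiles 18.2, 4.05, 13.3 and 82.7 of those lists, low in all but the last.

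Ascl2, a bHLH factor of the spongiotrophoblast, had 1 region in each GATA4 library and 3, 3 and 1 in the GATA6 libraries (p = 0.4, exact permutation test). Its 1 GATA6 combined region lay in an intron of Th, the tyrosine hydroxylase gene, 48855 bp from Ascl2 and close to the edge of the window (chr7:142919336-142919862). The maximum signal there was 11, 5 and 8 in the GATA6 libraries, with no call in a GATA4 library. Over the series, 3.54% of regions called in all 3 GATA6 libraries were called in no GATA4 library. Gcm1, which drives syncytiotrophoblast formation, had 2, 1 and 1 regions in the GATA4 libraries and 0, 1 and 0 in the GATA6 libraries (p = 0.3, exact permutation test). It had no combined region, and its 5 merged regions were called in 1 library each.

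**Figure D3:**
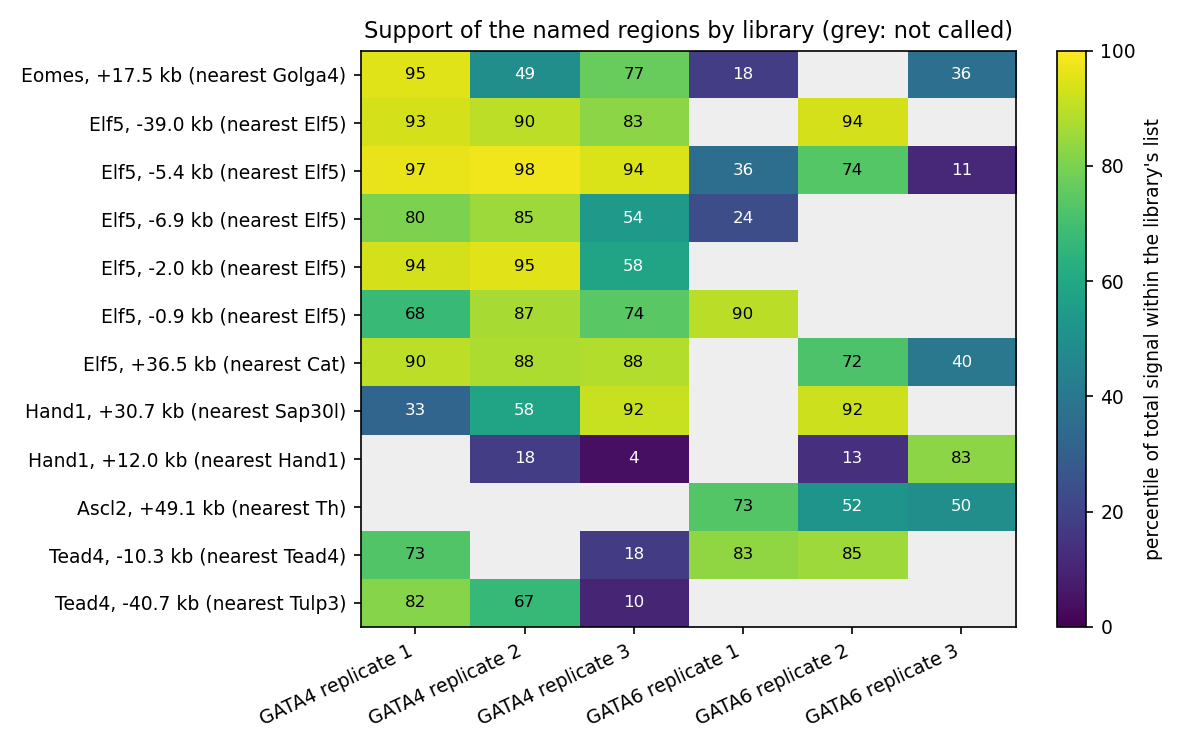
Combined regions in the members' windows and regions called in at least 4 libraries (rows, with the distance of the midpoint from the nearest TSS of the member in kb and the nearest protein-coding gene) against the 6 libraries (columns). Colour and number give the percentile of total signal within the library's own list and grey marks no call. The region 5.4 kb upstream of Elf5 is the 1 row with a value in every column, from 94.5 to 97.9 in the GATA4 libraries and from 11.0 to 73.6 in the GATA6 libraries.

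Under the same rule, 15 of 36 other genes of trophoblast and placenta (41.7%) had a GATA4 combined region in the window, and 13 of 36 (36.1%) a GATA6 one. Klf5 and Krt8, a Krüppel-like factor and a keratin also made in endoderm, had regions of both factors over a TSS. Lgals3, which encodes galectin-3, had them farther away, at 2168 bp for GATA4 and 2129 bp for GATA6. Of 16 relatives of the 10 factors by family, 7 (43.8%) had a GATA4 and 5 (31.2%) a GATA6 combined region. Ehf, the ETS-family neighbour of Elf5 on chromosome 2, had 4 GATA4 and 2 GATA6 combined regions, and Ets1 had 3 and 1.

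Of 14 endoderm transcription factors, 11 (78.6%) had a GATA4 and 10 (71.4%) a GATA6 combined region. The median was 2.5 GATA4 regions per gene, against 0 for the trophoblast factors and for all genes. Gata6, Sox7, Sox17 and Sall4 had regions of both factors over a TSS. None of the 10 trophoblast factors had, but this is uncommon among genes at large. Even within 1 kb of a TSS, 19.8% of all genes had a GATA4 and 13.8% a GATA6 combined region. The lists are small and were chosen with earlier results known, so their difference was not tested.

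**Figure D4:**
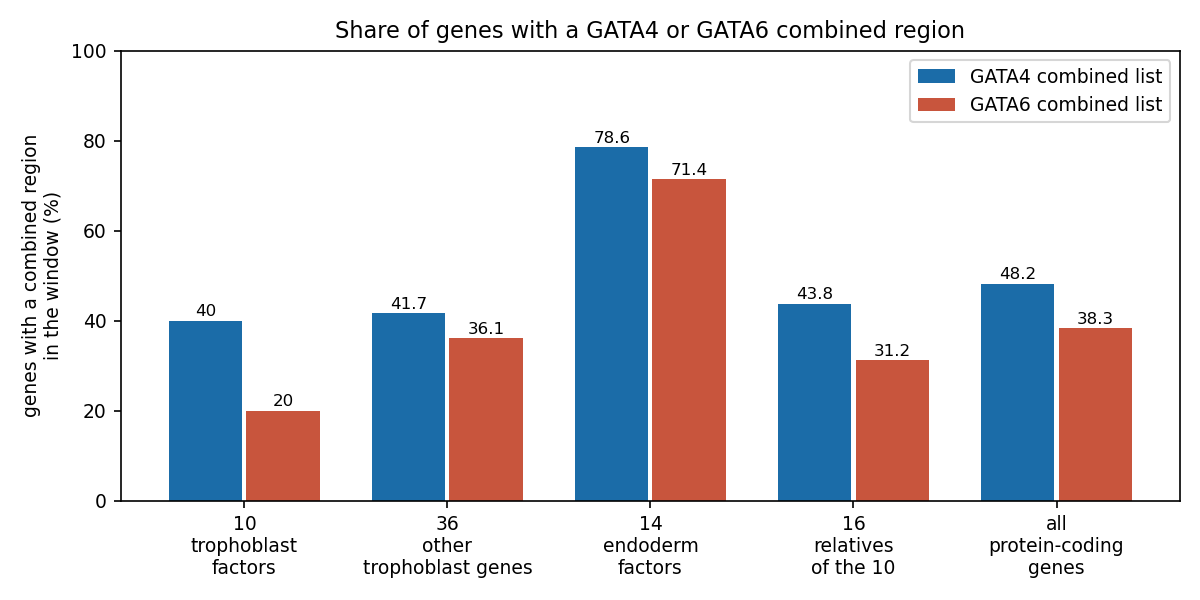
Percentage of genes with at least 1 combined region in the window (y axis) for the 10 trophoblast factors, 36 other trophoblast genes, 14 endoderm factors, 16 relatives by family and all protein-coding genes (x axis), with blue bars for GATA4 and red bars for GATA6. The trophoblast factors stand at 4 and 2 of 10, all genes at 48.2% and 38.3%, and the endoderm factors at 78.6% and 71.4%.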

How the data were processed

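CUT&RUN for GATA4 and GATA6 was measured in 3 libraries each, grouped by the sample titles. Paired-end reads were mapped by the authors with Bowtie2 2.3.4.1 (build mm10). They filtered them with Picard, SAMtools and bedtools, and called regions per library with SEACR 1.3 in stringent mode without a control. The deposited lists give the total and maximum signal of each region as unscaled fragment pileup. The study's methods name the lines 3F2 and 3F6 and fewer replicates than the labels, which were followed here. The authors' combined lists, with no signal column, hold the regions found in all replicates. Recomputing them gave the same 8282 GATA4 and 5170 GATA6 regions.

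Regions were assigned to genes of GENCODE M21 (protein-coding) with python 3.11.15, numpy 2.4.6 and pandas 2.3.3. Numbers of regions per library were tested by exact permutation over libraries (two-sided), with Benjamini-Hochberg adjustment over 21938 genes. The code was tested on simulated data. Overlapping regions of the 6 libraries were merged to count support. Alternatives changed the window, overlap, replicate requirement, list stringency and length, and libraries left out. The 10 genes, the other lists and the tests were chosen with earlier results of these data known. All 10 genes were named, with their combined regions (at most the 3 nearest a TSS in each list described in full) and regions called in at least 4 libraries. Up to 4 genes of each other list were named, those with regions of both factors nearest a TSS.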

Additional observations from a re-analysis of the deposited data

How the results depend on the processing

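Elf5 kept at least 4 GATA4 combined regions under each alternative tried, while the counts over the members moved. Elf5 was the 1 member with GATA4 combined regions within 10 kb (29.8% of all genes) or in lists cut to the stronger 50% (41.3%). It was also the 1 member that was the nearest gene of GATA4 combined regions (24.5%). With 2 of 3 libraries required, 5 members had GATA4 combined regions (65.3%). The number of these regions was 4 within 10 kb, 15 with 2 of 3 libraries required and 5 with the member nearest. GATA6 combined regions lay at 1 member within 10 kb (21.5%), 5 with 2 of 3 libraries (60.4%) and 0 in the stricter lists (29.9%). With the member nearest they lay at 1 (17.2%). Their number was 1 within 10 kb, 5 within 100 kb, 9 with 2 of 3 libraries, 0 in the stricter lists and 1 with the member nearest. Leaving out a GATA6 library, and so requiring the other 2, gave 3 to 5 members, beside 47.4 to 48.5% of all genes, and 3 to 6 regions.

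More GATA4 than GATA6 regions without overlap was seen at 2 members by base pairs (Elf5 and Gcm1, beside 7.29% of all genes) and 2 within 10 kb (Elf5 and Ets2, 2.91%), and at 1 to 2 with a library left out (8.98 to 9.96%). The second was Gcm1 without GATA6 replicate 2 and Eomes without GATA6 replicate 3. More GATA6 regions without overlap was seen at Tead4 without GATA4 replicate 1 (-2), Cdx2 without GATA6 replicate 1 (-1.83) and Ascl2 without GATA6 replicate 3 (-2), beside 3.13 to 4.23% of all genes with a library left out. The sign turned for Tead4 in the stricter lists (0.33), and for Eomes (-1) and Hand1 (-0.67) within 100 kb. With a library left out, the difference ranged from -1 to 0.5 for Tfap2a, positive at 0.17 without GATA4 replicate 2 and 0.5 without GATA6 replicate 2. For Hand1 it ranged from -0.17, without GATA4 replicate 3, to 1.83. The motif was in 88.9% of the members' GATA4 regions when the whole region was searched (70.8% of the list). Beyond those with fewer libraries, the cause was not tested.

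Same-numbered libraries did not deviate together (correlations over genes of -0.0137, 0.032 and -0.0284). Differently numbered libraries gave -0.06 to 0.0723. Whether the numbers pair the libraries stays unknown, since a correlation near 0 does not show that they came from separate cultures. With the replicate block, 1 member, Elf5 (11.1% of all genes), kept all 3 differences above 0 (mean 4.67, p = 0.25, exact sign-flip test, the smallest 3 pairs allow). Depth after filtering is unknown, so a missing call is not absence of binding.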
